A study of Homo sapiens with 7 samples.

Results

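The wild-type p53 library was compared with the 3 untreated libraries that carry no wild-type p53, which are 4 of the 7 RNA-seq libraries of the series. All 4 came from HCT116 p53-/- cells, a derivative of an established human colon carcinoma line that lacks functional p53. The cells had been infected with wild-type p53, with p53-M133T, with p53-R273H or with a control that the design text calls vector and the sample titles spell Vechile. None of the 4 received arsenic trioxide, which was given to the remaining 3 libraries of the series. Each line is represented by 1 library of gene counts, and nothing in the labels says whether a line is a clone or a pool of infected cells. The wild-type library held 25062996 counts, against 34474017 in the vector line, 39297534 in the p53-M133T line and 34358002 in the p53-R273H line. In the description field the name of the wild-type library starts with 190612 and the names of the others with 190312. Whatever these digits record, its effect and that of the genotype cannot be told apart.

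The members of the comparison were found by a range rule over all 19699 genes of the deposited table. A gene was above or below the range when its level in the wild-type library lay outside all 3 control libraries. Levels are in CPM, counts scaled to the size of each library, and the rule was applied to the 12605 genes that reached 1 CPM in any of the 4 libraries. The controls are the vector line, the p53-M133T line and the p53-R273H line, and their 3 values are always given in that order. With 1 wild-type library an exact permutation test cannot go below a one-sided p of 0.25. The p-values given are therefore from edgeR's quasi-likelihood fit, in which the 3 controls supply the spread and the lone wild-type library is assumed to vary as they do. The control lines differ from each other in genotype, so that spread contains more than technical error, and nothing says that the libraries came from repeated cultures.

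p53 is a transcription factor that is stabilised by DNA damage and other stress and binds the promoters and enhancers of genes for cell cycle arrest, apoptosis, DNA repair and metabolism. One of its targets, CDKN1A, encodes p21, an inhibitor of cyclin-dependent kinases. p21 keeps RB family proteins active, and the E2F genes of S phase and the genes of mitosis are then repressed. R273H replaces an arginine that touches DNA and is one of the frequent p53 changes in tumours, and M133T also lies in the DNA-binding domain.

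Promoters of 6 genes outside the range are shown because they carry the response elements of their pathways, and MCM3 and INCENP were picked for holding a motif. Sequences are the 250 bases before the RefSeq transcription start on GRCh38.p14, 5′ to 3′ on the gene's strand, with matches to 1 motif in capitals. In the first 3, the capitals mark GAAA, any 2 bases and GAAA again, or the reverse complement, which is the core of the interferon-stimulated response element (ISRE). IFI27 (chr14:94110486-94110735, plus strand), IFI6 (chr1:27672193-27672442, minus strand) and IFIT1 (chr10:89392373-89392622, plus strand) were the interferon-stimulated genes farthest above the range.
IFI27: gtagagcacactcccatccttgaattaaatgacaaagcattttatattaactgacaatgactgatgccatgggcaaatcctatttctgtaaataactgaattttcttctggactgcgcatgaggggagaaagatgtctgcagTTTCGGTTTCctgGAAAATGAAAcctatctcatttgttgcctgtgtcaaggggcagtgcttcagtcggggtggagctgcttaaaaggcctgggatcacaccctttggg
IFI6: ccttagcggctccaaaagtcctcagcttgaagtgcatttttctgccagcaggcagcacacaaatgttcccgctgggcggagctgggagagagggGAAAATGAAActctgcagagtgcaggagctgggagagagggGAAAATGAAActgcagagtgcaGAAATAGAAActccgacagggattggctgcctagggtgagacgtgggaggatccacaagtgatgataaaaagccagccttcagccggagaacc
IFIT1: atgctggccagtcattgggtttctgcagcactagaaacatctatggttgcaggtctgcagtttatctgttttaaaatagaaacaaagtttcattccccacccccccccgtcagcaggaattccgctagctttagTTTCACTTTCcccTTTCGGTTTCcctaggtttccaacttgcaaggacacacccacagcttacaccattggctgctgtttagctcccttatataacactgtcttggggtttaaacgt

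In the next pair, of genes below the range, the capitals mark TGATGNAA, the C/EBP-ATF composite element, in ASNS (chr7:97872409-97872658, minus strand), and TTTGGCGC or TTTCCCGC, the E2F site, in MCM3 (chr6:52284743-52284992, minus strand). Both strands were searched. INCENP (chr11:62123761-62124010, plus strand), a mitotic gene below the range, carries TTTGAA, the cell cycle genes homology region, close to its start.
ASNS: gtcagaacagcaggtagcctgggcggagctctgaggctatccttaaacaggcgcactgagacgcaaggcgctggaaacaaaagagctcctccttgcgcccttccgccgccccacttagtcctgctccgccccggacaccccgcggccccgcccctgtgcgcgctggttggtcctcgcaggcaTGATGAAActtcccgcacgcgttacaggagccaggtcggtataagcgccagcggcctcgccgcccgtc
MCM3: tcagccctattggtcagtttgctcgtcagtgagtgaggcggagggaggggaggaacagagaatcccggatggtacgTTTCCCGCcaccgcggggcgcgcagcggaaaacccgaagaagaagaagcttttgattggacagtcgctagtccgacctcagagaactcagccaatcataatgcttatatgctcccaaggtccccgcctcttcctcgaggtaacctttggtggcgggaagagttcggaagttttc
INCENP: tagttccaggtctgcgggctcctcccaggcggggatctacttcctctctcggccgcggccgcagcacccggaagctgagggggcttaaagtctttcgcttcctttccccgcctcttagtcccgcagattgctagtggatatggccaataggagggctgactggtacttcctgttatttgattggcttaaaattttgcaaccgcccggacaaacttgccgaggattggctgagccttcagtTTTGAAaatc

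The ISRE core was found in the 250 bases of 17 of the 28 interferon-stimulated effector genes with a RefSeq promoter (60.7%) and in 2.25% of the 10142 promoters matched to genes past the 1 CPM floor. The E2F site was found in 6 of 20 promoters of origin licensing and helicase genes (30%) and in 5 of 23 of replication polymerase genes (21.7%), against 3.13% of those matched promoters. TTTGAA was found in 16 of 31 promoters of mitotic regulators (51.6%) against 7.99%. TGATGNAA was found in 2 of 16 promoters of amino acid synthesis and transport genes (12.5%) against 1.33%. Hypoxia and sterol response elements were searched too, but only 24 of 32 hypoxia targets and 18 of 25 cholesterol genes had a matched promoter, under the 80% needed, so that these checks are void. Over all 27305 genes of the promoter table, counting 1 promoter per gene, the shares were 3.07% for the ISRE core, 1.96% for the E2F site, 13.6% for TTTGAA and 3.19% for TGATGNAA. A match describes the letters in this window and is not evidence of binding.

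Over all genes the 3 controls were close together and the wild-type library stood apart from all of them. Between pairs of controls the median absolute log2 difference over the 12605 genes was 0.12 for vector and p53-M133T, 0.09 for vector and p53-R273H and 0.15 for p53-M133T and p53-R273H. Between the wild-type library and the same 3 it was 0.26, 0.29 and 0.25 on that scale. At least 2-fold apart were 24 to 33 genes between controls and 626, 735 and 671 genes between the wild-type library and the vector line, the p53-M133T line and the p53-R273H line. The highest control exceeded the lowest by a median of 1.14-fold and by over 1.34-fold for 1 gene in 10.

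The wild-type library was above the range for 4973 genes (39.5%) and below it for 4906 (38.9%), while 2726 lay inside. Most of these distances were small, with a median of 1.17-fold from the nearest control in both directions. Of the genes above, 166 reached 1 CPM in the wild-type library alone and so had to lie above the range. At least 2-fold outside the range, with 1 CPM added to each level, were 269 genes above (2.13%) and 186 below (1.48%). Just short of that limit were RP11-295K3.1 at 1.999-fold above and NRGN at 1.999-fold below, and just past it CST7 at 2.005-fold above and IGFLR1 at 2.001-fold below. IGFLR1 shares exons with other genes and was short of 2-fold when its counts were summed with theirs. The edgeR test, over 13901 genes, called 1728 genes higher (12.4%) and 1780 lower (12.8%) in the wild-type line at an adjusted p under 0.05. All 455 genes at least 2-fold outside the range were among these calls. Without the vector library the calls fell to 1079 higher and 941 lower.

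**Figure D1:**
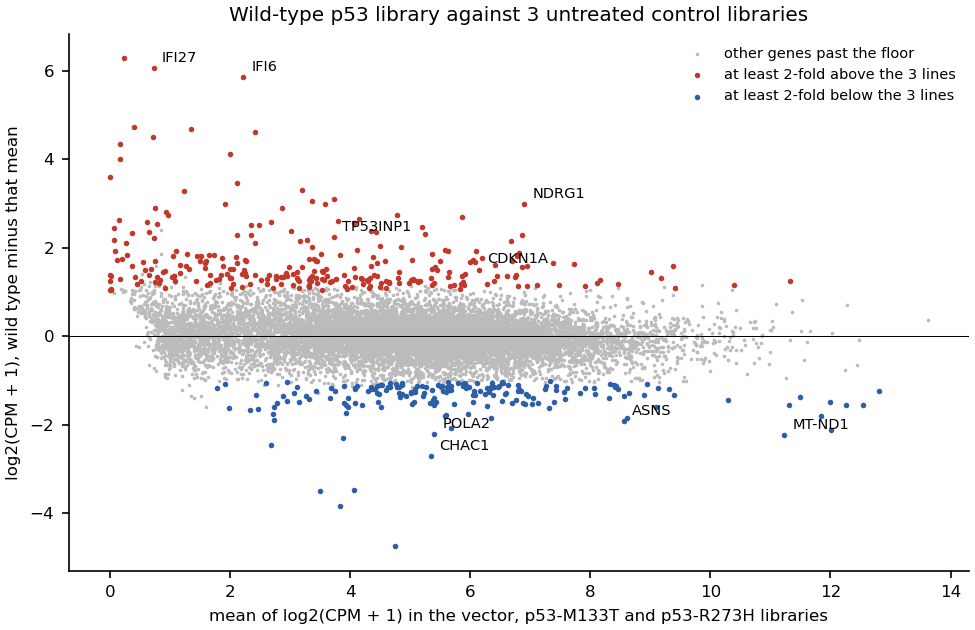
Each point is 1 of the 12605 genes past the floor, with the mean log2(CPM + 1) of the 3 control libraries on the horizontal axis and the wild-type library's difference from that mean on the vertical axis. The 269 genes at least 2-fold above all controls are red and the 186 at least 2-fold below are blue.

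Among p53 target genes, those for cell cycle arrest and metabolism were mostly higher in the wild-type line, and those for DNA repair were divided. Of the apoptosis targets tested, 26.3% were called higher and 10.5% lower, the latter under the share over all genes. Of 13 arrest targets in the table, 12 were tested and edgeR called 9 higher and none lower. Over all genes 12.4% were called higher and 12.8% lower. The list's median log2 fold change was 0.87 against 0.002 over all genes tested. Of 15 metabolic and stress targets, 14 were tested, 11 were called higher and 2 lower (median 0.83). Of 20 apoptosis targets, 19 were tested, 5 were called higher and 2 lower (median 0.22), and without the vector library 2 were called higher. All 9 DNA repair targets were tested, with 2 called higher and 3 lower (median 0.17). All 10 feedback regulators were tested, with 4 called higher and none lower (median 0.17).

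CDKN1A, which encodes the kinase inhibitor p21, was at 199.8 CPM in the wild-type line against 62.53, 86.8 and 62.6 CPM in the controls. The p53-M133T line was the highest control, and the wild-type line was 2.30-fold above it. The edgeR log2 fold change was 1.5 ± 0.18 (fit standard error) with an adjusted p of 0.00092. TP53INP1, a p53 cofactor and autophagy gene that stands in the arrest, feedback and metabolic lists, was at 61.3 CPM against 15.6, 12.1 and 9.64 CPM. It was 3.92-fold above the vector line (log2 fold change 2.30 ± 0.20, edgeR adjusted p 0.00032). BTG2, an antiproliferative factor, was at 48.2 CPM against 15.8, 18.8 and 13.4 CPM, also clear of all 3 controls. ZMAT3, an RNA-binding p53 target, was at 56.9 CPM against 26.1, 20.8 and 26.2 CPM, and SFN, which encodes 14-3-3 sigma and holds cells before mitosis, was at 274 CPM against 156, 178 and 148 CPM. Both were called higher.

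Among the feedback regulators, MDM2, the ubiquitin ligase that degrades p53, was at 247 CPM against 154, 134 and 153 CPM. It was 1.60-fold above the nearest control (log2 fold change 0.75 ± 0.11, edgeR adjusted p 0.0029). CCNG1, cyclin G1, was at 233 CPM against 172, 153 and 147 CPM and was called higher. RPS27L, a small ribosomal protein that is a p53 target, was at 49.6 CPM against 31.98, 26.9 and 16.1 CPM, with an adjusted p of 0.04 by edgeR and no call by DESeq2. PPM1D, the phosphatase WIP1, was at 46.7 CPM against 38.3, 43.6 and 39.8 CPM and was not called.

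Most apoptosis genes were not called. BBC3, which encodes the BH3 protein PUMA, was at 16.3 CPM against 16.5, 16.1 and 10.2 CPM, inside the range and next to the vector and p53-M133T lines. BAX, a pore-forming BCL2 family protein, was at 42.6 CPM against 35.47, 36.8 and 30.3 CPM, above all 3 controls but not called (edgeR adjusted p 0.12). BAX was called higher without the p53-M133T library and with the length and GC correction. FAS, the death receptor, was at 11.02 CPM against 7.06, 6.91 and 5.18 CPM and was called higher (adjusted p 0.024). The other called members included TP53I3, a quinone oxidoreductase, at 16.97 CPM against 7.58, 9.30 and 5.79 CPM, and TNFRSF10D, a TRAIL decoy receptor, at 108 CPM against 70.8, 73.6 and 78.3 CPM. The calls of TNFRSF10D and PMAIP1 were lost without the vector library. Their log2 fold changes moved little, from 0.54 to 0.51 and from -0.41 to -0.36. PMAIP1, which encodes NOXA, was lower at 27.9 CPM against 39.1, 34.2 and 37.6 CPM, as was PIDD1, a death domain adaptor, at 17.8 CPM against 31.9, 35.9 and 32.3 CPM. PIDD1 shares exons with the abundant ribosomal gene RPLP2, and FAS with ACTA2 on the opposite strand.

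In the metabolic group, SAT1, the enzyme that acetylates spermidine, was at 683 CPM against 317, 306 and 237 CPM, 2.16-fold above the vector line. TIGAR, which lowers glycolytic flux, was at 34.4 CPM against 20.8, 18.2 and 17.6 CPM. The sestrins, stress proteins that restrain mTORC1, did not move together. SESN1 was at 16.7 CPM against 8.25, 6.66 and 6.86 CPM and SESN3 was at 17.8 CPM against 8.02, 7.41 and 8.11 CPM, both called higher. SESN2, which is also a target of the stress factor ATF4, was at 19.49 CPM against 50.4, 47.3 and 37.7 CPM and was called lower (log2 fold change -1.21 ± 0.18, edgeR adjusted p 0.0027).

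Of the repair targets, RRM2B, the p53-inducible ribonucleotide reductase subunit, was at 111 CPM against 62.7, 53.8 and 63.54 CPM and was called higher. DDB2 and XPC, which recognise damaged bases for nucleotide excision repair, were not called, with DDB2 at 31.3 CPM against 29.2, 30.3 and 22.3 CPM and XPC at 59.8 CPM against 51.7, 52.2 and 44.4 CPM. PCNA, the sliding clamp of replication, was lower at 164 CPM against 286, 298 and 254 CPM. ERCC5 was counted among the 2 higher genes, and it shares exons with a neighbouring gene that is described further on.

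**Figure D2:**
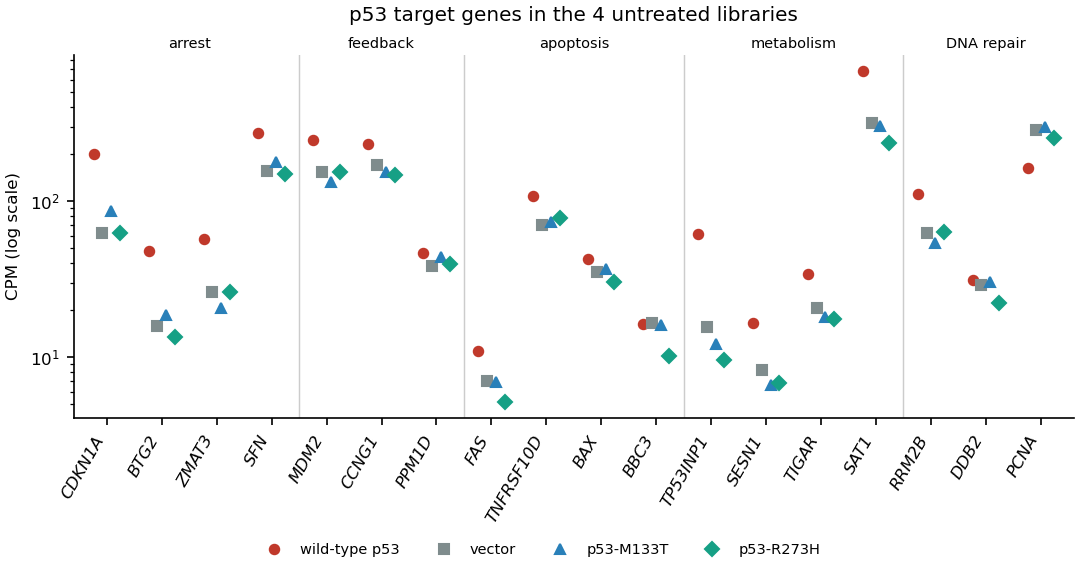
CPM on a log axis of 18 p53 target genes, grouped by role, with 1 symbol per library. The wild-type circles lie above the 3 controls for CDKN1A, BTG2, TP53INP1 and SAT1, among the controls for BBC3 and below them for PCNA.

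Of 71 further direct p53 targets in the table, 66 were tested, 21 were called higher and 2 lower (median log2 fold change 0.33). SERPINB5, which encodes maspin, was at 83.7 CPM against 32.7, 36.8 and 34.9 CPM, and PML, the organiser of nuclear bodies and also an interferon target, was at 60.4 CPM against 30.8, 31.05 and 29.1 CPM. PRDM1, which encodes the repressor BLIMP1, was at 2.40 CPM against 0.320, 0.259 and 0.463 CPM. It was 1 of 2 genes of the list that reached 1 CPM in the wild-type line alone and so had to lie above the range. THBS1, the matrix protein thrombospondin 1, was at 16.46 CPM against 38.3, 34.1 and 40.9 CPM and PTP4A1, a phosphatase, was at 367 CPM against 778, 739 and 719 CPM. These were the 2 called lower.

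Interferon-stimulated genes, which encode antiviral proteins and are switched on by interferon receptors, were far above the controls. IFI27, IFI6, IFIT1 and BST2 were, in that order, the genes with the largest distance among those called that share no exons with another gene. Of 41 effectors in the table, 35 were tested and edgeR called 34 higher and none lower, with a median log2 fold change of 2.62 and a range from 0.77 to 7.36. Past the floor were 31, all above the range and 27 of them at least 2-fold, while 7 of these 31 reached 1 CPM in the wild-type line alone and so had to differ. The other 10 effectors were under 1 CPM in all 4 libraries.

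IFI27, a mitochondrial interferon-induced protein, was at 109 CPM in the wild-type line against 0.610, 0.544 and 0.839 CPM in the controls, 130.3-fold above the p53-R273H line. IFI6, an antiviral protein of the endoplasmic reticulum, was at 267 CPM against 4.42, 3.24 and 3.42 CPM. IFIT1, which binds foreign RNA lacking a methylated cap, was at 129.5 CPM against 4.59, 4.04 and 4.40 CPM. In all 3 genes, whose promoters are shown above, the controls differed among themselves by far less than from the wild-type line, with edgeR log2 fold changes of 7.36 ± 0.16, 6.18 ± 0.14 and 4.90 ± 0.11 and adjusted p-values of 4.8e-07, 4.9e-07 and 4.8e-07. OAS1, which makes the activator of RNase L, was at 21.8 CPM against 0.116, 0.052 and 0.232 CPM, BST2, which tethers budding virions, at 36.1 CPM against 0.668, 0.880 and 0.434 CPM, and IFI44 at 16.9 CPM against 0.145, 0.129 and 0.087 CPM. ISG15, a ubiquitin-like modifier that the controls also expressed, was at 184 CPM against 27.6, 28.4 and 24.2 CPM. IFITM1, which blocks viral entry, was at 65 CPM against 1.95, 1.63 and 1.16 CPM, and its exons overlap those of the related IFITM2. The sum of both was 176 CPM against 58.7, 60.9 and 58.0 CPM, a much smaller distance.

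The signalling genes of the pathway were higher in part. Past the floor were 19, of which 1 reached 1 CPM in the wild-type line alone and so had to lie above the range. Of 24 in the table, 19 were tested, 10 were called higher and 1 lower (median 0.60). IRF9, a transcription factor of the pathway, was at 41.3 CPM against 8.86, 6.86 and 5.91 CPM and IRF7, a factor that amplifies interferon production, at 23.7 CPM against 4.73, 3.57 and 3.995 CPM. The RNA sensors IFIH1, which encodes MDA5, and DDX58, which encodes RIG-I, were at 53.54 CPM against 6.54, 5.98 and 6.40 CPM and at 83.7 CPM against 13.2, 12.9 and 12.6 CPM. The receptor subunit IFNAR1 was inside the range at 66.54 CPM against 61.3, 56.3 and 68.4 CPM, and TYK2, a receptor-associated kinase, was called lower at 43.4 CPM against 70.2, 66.55 and 64.1 CPM. IFNB1, which encodes interferon beta, had 0 counts in the wild-type library, which allows up to 0.118 CPM, and 0, 0 and 1 counts in the controls. IFNL1, an interferon lambda gene, had 6 counts against 1, 9 and 3.

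Antigen presentation genes followed with smaller differences. Past the floor were 20, of which 2 reached 1 CPM in the wild-type line alone and so had to lie above the range. Of 22 in the table, 21 were tested, 14 were called higher and none lower (median 1.06). B2M, the light chain of class I molecules, was at 282 CPM against 111, 114 and 101 CPM. TAP1, the peptide transporter, was at 80.47 CPM against 31.54, 33.7 and 32.6 CPM, and the immunoproteasome subunit PSMB9 was at 6.10 CPM against 1.42, 1.53 and 1.505 CPM. All 3 were called higher, and the wild-type line lay 2.39-fold to 3.99-fold above the nearest control. PSMB10, another such subunit, was at 5.12 CPM against 8.92, 8.68 and 6.43 CPM and was not called.

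Markers of leukocytes moved in the same direction as the interferon genes. The summed level of 15 leukocyte and myeloid markers was 83.0 CPM in the wild-type library against 10.1, 8.78 and 8.54 CPM in the controls, with 7 of the 15 called higher. Past the floor were 9, all above the range, but 7 of these reached 1 CPM in the wild-type library alone and so had to differ. MPO, a granule enzyme of neutrophil precursors, was at 34.2 CPM against 0.900, 0.078 and 0.145 CPM, and CD68, a lysosomal protein common in macrophages, was at 28.2 CPM against 4.21, 4.07 and 4.02 CPM. LYZ, lysozyme, was at 5.87 CPM against 0.261, 0.104 and 0 CPM, ELANE, neutrophil elastase, at 3.74 CPM against 0.145, 0 and 0 CPM, and CTSG, cathepsin G, at 1.61 CPM against 0.058, 0 and 0 CPM. LYZ and ELANE were called higher by edgeR and not by DESeq2. AZU1 and PRTN3, 2 more granule proteins, were at 1.77 CPM against 0.232, 0.026 and 0.145 CPM and at 1.89 CPM against 0.436, 0.259 and 0.521 CPM. The defining marker of leukocytes, PTPRC, had 4 counts in the wild-type library and 1, 0 and 4 in the controls. The myeloid factor SPI1 had 1, against 2, 0 and 0, CD14 had 1, against 2, 4 and 0, and the T cell gene CD3E had 0, against 1, 0 and 0. ITGAM was at 0.43 CPM against 0.44, 0.39 and 0.49 CPM, CD33 at 3.70 CPM against 2.76, 3.42 and 2.52 CPM, CSF1R at 1.06 CPM against 0.320, 0.233 and 0.463 CPM, and the B cell gene CD79A had 7 counts against 4, 4 and 4. The part of these transcripts in the interferon and antigen presentation results was not tested.

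Hypoxia-inducible genes were higher in the wild-type line, while HIF1A, the oxygen-regulated subunit of HIF-1, was not. Of 35 hypoxia targets in the table, 34 were tested, 26 were called higher and 1 lower (median 0.87). HIF1A was inside the range at 213 CPM against 217, 185 and 218 CPM, which says nothing of its protein. ANGPTL4, an inhibitor of lipoprotein lipase, was at 89.45 CPM against 8.19, 9.22 and 7.24 CPM, 9.70-fold above the p53-M133T line. NDRG1, a stress-responsive protein, was at 943 CPM against 116, 119 and 121 CPM, and ADM, the vasodilator adrenomedullin, at 109 CPM against 15.3, 17.9 and 16.96 CPM. For these 3 genes the edgeR log2 fold changes were 3.44 ± 0.13, 2.99 ± 0.09 and 2.71 ± 0.11, with adjusted p-values of 5.6e-06, 3.1e-06 and 6.6e-06. CA9, a carbonic anhydrase, was called higher at 7.09 CPM against 0.465, 0.906 and 0.405 CPM. It reached 1 CPM in the wild-type line alone and so had to lie above the range. CA9 also shares exons with ARHGEF39, and the sum of both was below the range at 21.4 CPM against 31.0, 32.1 and 28.8 CPM. VEGFA, the angiogenic growth factor, differed less, at 130 CPM against 93.8, 88.7 and 87.2 CPM. KISS1R, a peptide receptor and the only target called lower, was at 1.02 CPM against 2.47, 2.12 and 2.26 CPM, a call that was lost without the vector library.

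The regulators of the pathway and the glycolytic enzymes went the same way. Of 14 HIF subunits and regulators, all tested, 7 were called higher and none lower (median 0.37). BHLHE40, a repressor induced by HIF, was at 458 CPM against 103, 99.8 and 104 CPM and EGLN3, a prolyl hydroxylase that marks HIF for degradation, at 14.6 CPM against 3.92, 3.73 and 3.68 CPM. All 24 glucose transport and glycolysis genes in the table were tested, and 19 were called higher and none lower (median 0.72). SLC2A3, the glucose transporter GLUT3, was at 84.6 CPM against 8.95, 8.39 and 10.9 CPM, and ALDOC, an aldolase, was at 380.1 CPM against 60.6, 62.05 and 50.8 CPM. PDK1, the kinase that closes the entry of pyruvate into mitochondria, was at 71.2 CPM against 21.7, 17.7 and 20.7 CPM and PGK1, phosphoglycerate kinase, at 1439.6 CPM against 585, 615 and 533 CPM. PFKM and LDHB lay a little below the range and were not called, with PFKM at 155 CPM against 174, 191 and 169.95 CPM.

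Cholesterol synthesis genes, which SREBP2 activates when sterols are low, were higher as a group. All 25 were tested, and 21 were called higher and none lower (median 0.76). INSIG1, which retains SREBP in the endoplasmic reticulum and is itself its target, was at 411 CPM against 107, 112 and 115 CPM. HMGCS1, an early enzyme of the pathway, was at 385 CPM against 107, 105 and 116 CPM, and MSMO1, a sterol demethylase, at 249 CPM against 73.52, 70.3 and 74.02 CPM. The wild-type line lay 3.32-fold to 3.57-fold above the nearest control for these 3 genes. SREBF2, which encodes SREBP2, was at 403 CPM against 309.6, 299.5 and 301 CPM and was called higher, though not without the vector library. SREBF1 at 232 CPM against 281, 258 and 242 CPM was not called. Of 18 fatty acid genes, 7 were called higher and 1 lower (median 0.12). SCD, the stearoyl-CoA desaturase, was called higher at 5221 CPM against 3013, 2808 and 3048 CPM. ACSS2, which activates acetate, was called higher at 117 CPM against 54.2, 52.4 and 50.2 CPM, and FADS2, a desaturase of polyunsaturated fatty acids, was the 1 called lower at 15.2 CPM against 23.7, 23.4 and 20.1 CPM, a call lost without the vector library.

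Genes of the amino acid response, in which ATF4 induces synthesis and import of amino acids, were lower in the wild-type line. Of 22 amino acid synthesis and transport genes, all tested, 17 were called lower and none higher (median -1.09). ASNS, asparagine synthetase, was at 99.1 CPM against 396, 398 and 341 CPM, 3.44-fold below the lowest control, the p53-R273H line (log2 fold change -1.93 ± 0.14, edgeR adjusted p 0.00014). PSAT1 and PHGDH, enzymes of serine synthesis, were at 107 CPM against 418, 391 and 359 CPM and at 48.4 CPM against 141, 149.8 and 127 CPM. SLC7A5, the large neutral amino acid transporter LAT1, was at 458 CPM against 1290, 1284 and 1181 CPM. CTH and SLC38A2 lay above the range and were not called, with SLC38A2, a glutamine carrier, at 950.4 CPM against 838, 699.8 and 769 CPM.

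ATF4 and its partners showed the same direction. Of 17 in the table, all tested, 9 were called lower and 1 higher (median -0.66). ATF4 was at 233 CPM against 485, 506 and 415 CPM, and CHAC1, an enzyme that degrades glutathione, was at 5.20 CPM against 44.3, 45.2 and 31.2 CPM, 6.01-fold below the p53-R273H line. TRIB3, a pseudokinase, was at 40.3 CPM against 134, 127 and 99.4 CPM and DDIT3, which encodes CHOP, at 10.9 CPM against 32.2, 31.7 and 25.1 CPM. The p53-R273H line was the lowest control for ASNS, CHAC1, TRIB3, DDIT3 and ATF4. DDIT4, which inhibits mTORC1 and is induced by hypoxia and p53 as well, was the 1 called higher, at 397 CPM against 224, 223 and 165 CPM. Of 20 aminoacyl-tRNA synthetase genes, which load tRNAs with amino acids, 16 were called lower and 1 higher (median -0.67). AARS, for alanine, was at 227 CPM against 466, 456 and 434 CPM, and DARS, for aspartate and the 1 called higher, was at 182 CPM against 128, 126 and 129.97 CPM. The call of DARS was lost without the vector library.

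DNA replication genes were lower in all but a few cases. All 23 origin licensing and helicase genes were tested, and 20 were called lower and none higher (median -1.14). All 26 polymerase and clamp genes were tested, and 25 were called lower and none higher (median -1.05). POLA2, a subunit of the polymerase that lays down primers, was at 8.15 CPM against 38.1, 44.7 and 41.2 CPM, 4.68-fold below the vector line. MCM2 and MCM3, subunits of the replicative helicase, were at 119 CPM against 312, 336 and 302 CPM and at 147 CPM against 371, 398 and 365 CPM. CDC45, which activates that helicase, was at 14.3 CPM against 40.6, 42.55 and 38.7 CPM and GINS4, its partner, at 13.3 CPM against 42.8, 41.2 and 40.3 CPM. For POLA2, MCM3 and GINS4 the edgeR log2 fold changes were -2.34 ± 0.15, -1.36 ± 0.12 and -1.64 ± 0.12, with adjusted p-values of 8.4e-05, 0.00028 and 0.00017.

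Nucleotide synthesis genes and the mixed list of E2F factors and G1 regulators had smaller median differences. E2F2 was nonetheless among the 12 genes farthest below the range that share no exons. Of 21 nucleotide synthesis genes, 16 were called lower and none higher (median -0.56), and 9 were called lower without the vector library. RRM2, the S-phase subunit of ribonucleotide reductase, was at 230.5 CPM against 489.9, 502 and 486 CPM, opposite in direction to the p53-inducible subunit RRM2B. TYMS, thymidylate synthase, was at 129 CPM against 269, 283 and 247 CPM. Of 26 E2F factors and G1 regulators, all tested, 12 were called lower and 2 higher (median -0.33). E2F1 and E2F2, activators of S-phase genes, were at 21.02 CPM against 49.8, 51.9 and 49.2 CPM and at 12.6 CPM against 46.1, 48.2 and 46.6 CPM. The 2 called higher were CDKN1C, which encodes the inhibitor p57, at 23.1 CPM against 9.12, 9.81 and 8.65 CPM, and CDKN2B, which encodes p15, at 10.2 CPM against 7.38, 6.11 and 6.80 CPM. CDKN2B was not called without the vector library.

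Mitotic genes were lower in all but 2 cases. All 38 were tested, and 36 were called lower and none higher (median -0.77, range -1.28 to -0.02). The exceptions were CDC25B, which was inside the range, and ANLN. Only 2 of the 38 were at least 2-fold below the range. FOXM1, a transcription factor of mitotic genes, was at 78.1 CPM against 177, 192 and 199 CPM, and TTK, a spindle checkpoint kinase, at 44.3 CPM against 92.1, 91.46 and 95.53 CPM. CCNB1, cyclin B1, was at 195 CPM against 285, 319 and 285 CPM and INCENP, of the chromosomal passenger complex, at 61.2 CPM against 117, 109.98 and 116 CPM. Replication-dependent histone transcripts, which largely lack a poly(A) tail, included some that were higher. Of 19 in the table, 13 were tested, 5 were called higher and none lower, with HIST1H2BD at 22.2 CPM against 5.92, 4.14 and 3.36 CPM and HIST1H1C at 17.7 CPM against 7.46, 6.81 and 5.15 CPM. Counts of histone genes may be divided between near-identical copies.

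**Figure D3:**
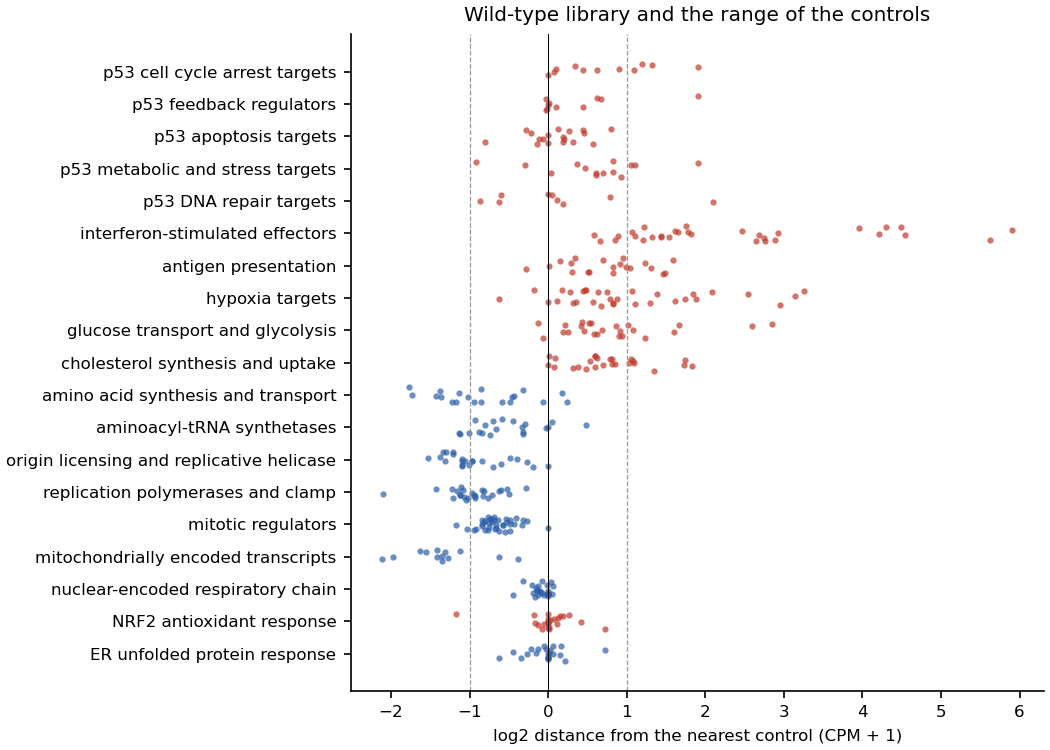
Each point is 1 gene past the floor in 1 of 19 lists, placed at the log2 distance of the wild-type library from its nearest control, with 0 for genes inside the range and dashed lines at 2-fold. Lists whose median distance is above 0 are red and the others blue, so that interferon-stimulated effectors reach farthest to the right and replication and mitochondrially encoded genes lie to the left.

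All 13 mitochondrially encoded protein genes were below the range, and all 13 were called lower (median -1.57). They took 1.41% of the counts of the wild-type library and 3.69%, 4.59% and 3.77% of those of the controls. MT-ND1, a subunit of respiratory complex I, was at 509.7 CPM against 2236, 2819.7 and 2203 CPM, 4.32-fold below the p53-R273H line. MT-ND4, another complex I subunit, was at 2018.8 CPM against 5389, 6856 and 5719 CPM. The nuclear-encoded subunits of the same complexes differed far less. Of 27 tested, 2 were called lower (7.41%, against 12.8% over all genes) and none higher (median -0.16). These were NDUFA9 and ATP5G1. NDUFA9, a complex I subunit, was at 53.9 CPM against 82.2, 89.4 and 74.02 CPM. Summed with the genes whose exons it shares, it was at 66.0 CPM against 83.7, 90.6 and 75.4 CPM, a smaller distance. The second, ATP5G1, a ring subunit of ATP synthase, was at 50.2 CPM against 69.6, 76.9 and 62.9 CPM. Neither was called without the vector library, while 7 genes of the list were called lower without the p53-R273H library. Of 19 genes for mitochondrial transcription and RNA handling, 3 were called lower and none higher (median -0.14), and 1 was called lower without the vector library and 6 with a correction for length and GC content. The share called lower, 15.8%, was near the 12.8% over all genes. Among the 3 called lower was SLIRP, an RNA-binding protein that stabilises mitochondrial transcripts, at 26.8 CPM against 46.6, 55.2 and 45.8 CPM.

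**Figure D4:**
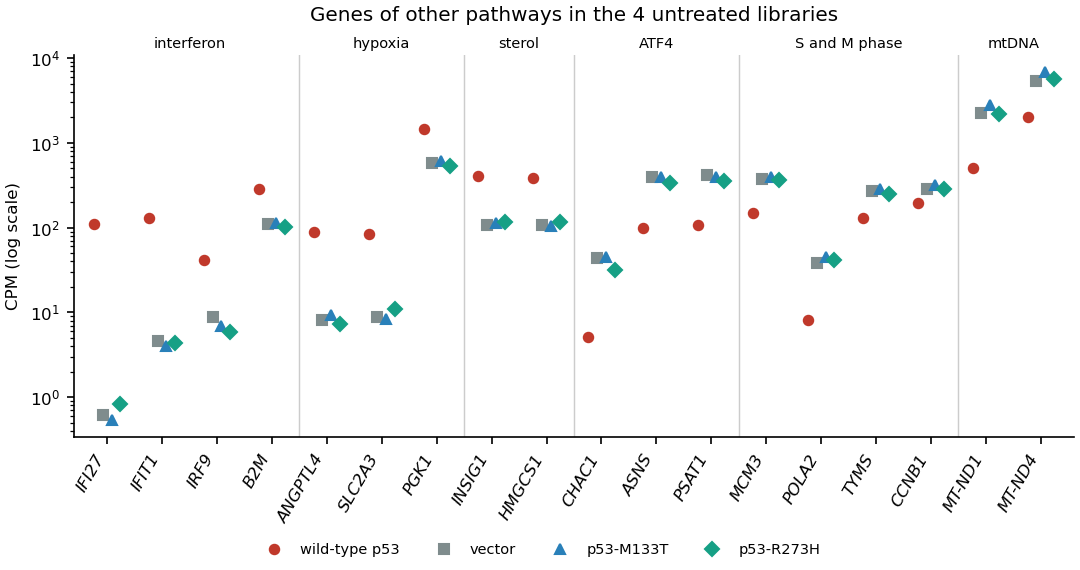
CPM on a log axis of 18 genes outside the p53 target lists, grouped by pathway, with 1 symbol per library. The wild-type circles are above the controls for interferon, hypoxia and sterol genes and below them for ATF4, S and M phase and mitochondrially encoded genes.

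Of the stress pathways that arsenic is known to engage, heat shock genes were lower in part, and the others held few calls. Of 25 NRF2 antioxidant genes tested, 2 were called higher and 1 lower (median 0.07), and 4 were called higher without the p53-M133T library. HMOX1, heme oxygenase, was at 52.1 CPM against 25.7, 31.2 and 22.95 CPM and was called higher, and SLC7A11, the cystine transporter that p53 can repress and ATF4 induces, was the 1 called lower at 50.6 CPM against 190.2, 116 and 178 CPM. The p53-M133T line was the lowest control for SLC7A11. Of 6 metallothionein and zinc export genes tested, 2 were called higher and none lower, with MT1X at 19.02 CPM against 10.9, 10.95 and 8.42 CPM. Of 20 heat shock genes tested, 9 were called lower and none higher (median -0.25), with the chaperone HSPH1 at 136 CPM against 227, 237 and 266 CPM. Of 23 genes of the unfolded protein response of the endoplasmic reticulum, 1 was called higher and 3 lower (median -0.01). These shares, 4.35% and 13%, were under or near the 12.4% and 12.8% over all genes. Without the vector library 1 was called higher and 1 lower, and without the p53-M133T library 3 were called higher and 5 lower. SDF2L1, a component of the chaperone complex of that compartment, was lower at 21.6 CPM against 35.1, 35.2 and 34.01 CPM, and DNAJB9, a co-chaperone, was higher at 21.1 CPM against 12.4, 10.7 and 11.3 CPM.

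Immediate early genes, which growth factor signalling through ERK switches on, were mostly above the range. All 30 were tested, and 16 were called higher and 2 lower (median 0.53), while none was called lower without the vector library and 4 without the p53-R273H library. DUSP4, an ERK phosphatase, was at 524 CPM against 185, 169 and 148 CPM and KLF6, a zinc finger factor, at 197 CPM against 83.2, 84.47 and 81.3 CPM. EGR3, an early growth response factor, was at 11.8 CPM against 3.78, 3.62 and 3.94 CPM, and ETV5, an ETS factor, was called lower at 99.3 CPM against 152, 143 and 140.02 CPM, though not without the vector library. Of 16 NF-kB targets and chemokines tested, 3 were called higher and 1 lower (median 0.36). Without the p53-M133T library 5 were called higher, without the vector library none was called lower, and with the length and GC correction 6 were called higher and 2 lower. Among the 3 was the inhibitor of apoptosis BIRC3 at 7.17 CPM against 2.27, 2.87 and 2.11 CPM. Of 14 WNT and MYC targets tested, 4 were called higher and 2 lower (median 0.21). The share called lower, 14.3%, was near the 12.8% over all genes. Without the vector library 2 were called higher and 1 lower, and DESeq2 called 2 higher. AXIN2, a feedback inhibitor that beta-catenin induces, was lower at 18.7 CPM against 46.6, 45.4 and 45.48 CPM, and CD44, an adhesion receptor, was higher at 1264 CPM against 731, 634 and 626 CPM. SOX9, a progenitor factor of the gut, was higher at 340.1 CPM against 192, 165 and 186 CPM. Of 26 autophagy and lysosome genes, 7 were called higher and 1 lower (median 0.18), and 3 were called higher without the vector library. Of 25 ribosome biogenesis genes, 12 were called lower and none higher (median -0.35), and 1 was called lower without the vector library. NCL, which encodes nucleolin, was at 1285 CPM against 1731, 1892 and 1779 CPM and lost its call there.

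Epithelial markers were high in all 4 libraries, while some markers of differentiated colon were near 0. Of 9 epithelial markers, 6 were past the floor, 3 of them above the range, and edgeR called 3 of the 9 higher and 1 lower. EPCAM, an epithelial adhesion protein, was at 265 CPM against 246, 259 and 261 CPM, and KRT8, a simple epithelial keratin, was inside the range at 1601 CPM against 1729.9, 1819.5 and 1514 CPM. CDX2, the intestinal transcription factor, was also inside the range at 15.4 CPM against 13.4, 15.9 and 13.3 CPM. CEACAM5 had no more than 2 counts and LGALS4 no more than 4 in any of the 4 libraries, and VIL1, villin, was under 1 CPM in all, with 24 counts against 9, 4 and 1, and was called higher. The adhesion protein CDH1 was called higher at 185 CPM against 119, 116 and 125 CPM, as was KRT19 at 1302 CPM against 595, 653 and 554 CPM. CEACAM1 was also called higher, at 6.73 CPM against 0.697, 0.725 and 0.608 CPM. It reached 1 CPM in the wild-type library alone and so had to lie above the range. KRT18 was called lower at 688 CPM against 1048, 1099 and 896 CPM, though not without the vector library, and it shares exons with KRT8. KRT13, a keratin of stratified epithelium, was among the 12 genes farthest above the range at 21.9 CPM against 1.51, 1.45 and 1.16 CPM.

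Summed over 9 fibroblast markers the level was 31.1 CPM in the wild-type library against 25.8, 27.2 and 24.4 CPM, with ACTA2, smooth muscle actin, called higher at 8.23 CPM against 2.03, 1.97 and 1.53 CPM. COL1A1 was below the range at 21.7 CPM against 22.8, 24.8 and 22.1 CPM and was not called. COL1A2 and LUM had 0 counts in the wild-type library, and DCN had 1. Summed over 9 erythroid and endothelial markers it was 20.9 CPM against 15.7, 2.82 and 2.32 CPM, and none of the 9 was called. The wild-type and vector libraries were thus the high pair for these genes. HBB, beta globin, was at 8.54 CPM in the wild-type library and 4.53 CPM in the vector library, and had 0 counts in the p53-M133T and 2 in the p53-R273H library. HBA1, alpha globin, followed the same split at 4.09 CPM against 3.95, 0 and 0 CPM, and its sequence is nearly identical to that of HBA2. Both HBB and HBA1 were called higher once the vector library or the p53-R273H library was left out.

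Of the 12 genes farthest below the range that share no exons with another gene of the table, those not yet described were the following. MT-ND2 was at 942 CPM against 3686, 5052 and 3785 CPM, and PCK2, a mitochondrial enzyme of gluconeogenesis, was at 21.6 CPM against 88.04, 83.95 and 69.8 CPM. UPP1, uridine phosphorylase, was at 13.2 CPM against 49.2, 50.4 and 43.51 CPM and PABPC1L, a poly(A)-binding protein, at 17.6 CPM against 65.96, 56.4 and 63.1 CPM. ECE2, an endothelin-converting enzyme, had 0 counts in the wild-type library, which allows up to 0.118 CPM, against 10.02, 12.1 and 8.97 CPM in the controls, at least 75.98-fold lower than the p53-R273H line. The annotation also lists a readthrough gene, EEF1AKMT4-ECE2, over the whole of ECE2, and it was not analysed here. Of the 12 farthest above, the 1 not yet described was SAMD9, an antiviral factor, at 112 CPM against 13.7, 9.89 and 13.9 CPM.

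Several of the largest single differences belonged to genes whose exons overlap those of another gene, and for many of them the sum over the overlapping genes differed much less. Whether reads of all 4 libraries were assigned to genes with the same annotation and settings is not given in the sources used here and was not tested. Exons were shared by 31.3% of genes past the floor, by 22.3% of those at least 2-fold above the range and by 43.5% of those at least 2-fold below it. Of 60 such genes above, 29 were still at least 2-fold above the range after their counts were summed with those of their overlapping partners, and of 81 below, 31 were still at least 2-fold below. BIVM-ERCC5, a readthrough of 2 neighbouring genes on chromosome 13, had 0 counts in the wild-type library against 26.8, 25.6 and 25.53 CPM, while ERCC5, an endonuclease of nucleotide excision repair, was at 37.2 CPM against 4.53, 4.38 and 7.96 CPM. The sum of BIVM-ERCC5, ERCC5 and BIVM was 49.3 CPM in the wild-type library and 47.8, 44.0 and 49.7 CPM in the controls, inside the range. The call of ERCC5 among the p53 repair targets was therefore not seen in the summed counts.

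AC007192.4, which overlaps PIK3R2 and IFI30, was at 91.1 CPM in the wild-type library and had 0, 0 and 23 counts in the controls, while PIK3R2, a regulatory subunit of PI3-kinase, was at 47.6 CPM against 117, 130.5 and 123 CPM. Summed over the 3 genes the wild-type library was at 168 CPM and the controls at 157, 178 and 164 CPM, again inside the range. CXCR5, a chemokine receptor of B cells that overlaps BCL9L on the opposite strand, had 0 counts in the wild-type library against 15.54, 21.9 and 6.66 CPM, and BCL9L was inside the range at 201 CPM against 208, 198 and 220.3 CPM. TNFRSF6B, a decoy receptor for FAS ligand, was at 68.2 CPM against 4.47, 2.98 and 1.91 CPM, and there the sum with its partners stayed above the range at 109 CPM against 59.2, 53.8 and 47.7 CPM. PARP9 and DTX3L, interferon-induced partners transcribed from a shared promoter region, were higher singly and summed, with a sum of 191 CPM against 28.5, 25.04 and 26.8 CPM. Of 35 genes given here with their values that share exons, 26 were on the same side of the range after summing. The exceptions were PIDD1, XPC, CA9, KRT8, BIVM-ERCC5, ERCC5, AC007192.4, PIK3R2 and BCL9L. Where the partner supplies most of the sum, its side says little of the named gene. CXCR5, with 0 counts in the wild-type library, was among the 26 at a summed log2 distance of -0.13. KRT18 at -0.07, SREBF1 at -0.10 and NDUFA9 at -0.19 were also among them.

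**Figure D5:**
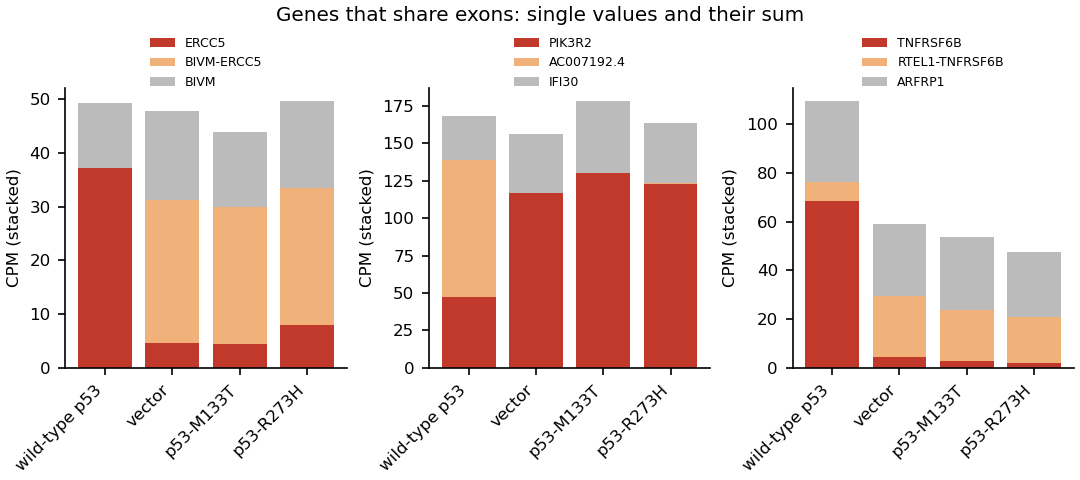
Stacked CPM of 3 groups of overlapping genes in the 4 libraries. In the first pair of groups the wild-type bar is divided differently among the genes while its height lies within the range of the controls, and in the group with TNFRSF6B the wild-type bar is taller than the others.

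The spread between the control lines themselves was at least 2-fold for 52 genes (0.413%). Among the widest that share no exons were HBB and HBA1, whose values are given above, and in both the vector library was the high one. Across the p53 targets described above, the order of the 3 controls changed from gene to gene. CDKN1A and BTG2 were highest in the p53-M133T line, TP53INP1 and TIGAR in the vector line, and ZMAT3 and RRM2B were lowest in the p53-M133T line.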

How the data were processed

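TruSeq libraries were sequenced as 150-bp pairs on the HiSeq Xten platform, per the labels' protocols. FastQC, cutadapt, STAR and the hg38 build were used, per the submitters' processing notes, which give no versions. The deposited table holds raw whole-number counts for each gene. How reads were assigned to genes, with which annotation and strand setting, is not given in the sources used here, so genes that share exons are uncertain. All 19699 gene identifiers were found in GENCODE 29, and symbols turned into dates were replaced from it. The 3 libraries treated with arsenic trioxide were not used.

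Counts were scaled to CPM with TMM factors of edgeR 4.0.16 in R 4.3.3. A count of 0 allows up to 3 counts, between 0.0777 and 0.118 CPM, and covers counting error only. The quasi-likelihood test of edgeR used 13901 genes passing its filter, with Benjamini-Hochberg adjustment at 0.05. A gene could pass this filter through the wild-type library alone. In the histone list and in the NF-kB list, 1 gene each reached 1 CPM in that library alone and so had to lie above the range. It had 2 residual degrees of freedom among the 3 controls. The fit added 5.96 prior degrees of freedom from the spread pooled over genes, so each gene's own spread had the smaller weight. Its p-values measure only the spread between these libraries, pooled in this way. On simulated counts of 13901 genes with this design, 82% of genes raised 2-fold and 98% of those raised 4-fold were recovered. Of those lowered to 0.5 and to 0.25 of their level, 80% and 88% were recovered, and 15 unchanged genes were called. The simulation drew all libraries from the same means with a fixed dispersion and changed a small set of genes in the wild-type library. Its controls thus did not differ in genotype, and these shares do not carry over to the real libraries. Other scalings, filters, pseudocounts and margins, DESeq2 1.42.0, a correction for length and GC content, and leaving out each control were tried. Leaving out a control leaves 1 residual degree of freedom. Without the p53-R273H library the prior degrees of freedom were infinite, so that calls there rested on the pooled spread and not on each gene's own. Without the vector library the remaining controls were the pair farthest apart (median absolute log2 difference 0.15). A call lost there need not mean a smaller difference.

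The members and the 39 gene lists were chosen with earlier results of these data known. Genes were named by rule. These were the 12 genes farthest above and the 12 farthest below the range among called genes that share no exons, up to 5 members of each list farthest out in the direction of its median and 2 in the other direction, fixed anchors of each pathway, cell type markers, and the 5 genes with the widest spread among controls. Other members of the lists, and genes that share exons, were added for their role or size after their values were seen. Exon overlap was taken from GENCODE 29 and promoters from RefSeq. Of 12605 genes, 10142 were matched, by Ensembl identifier or, where that failed, by symbol. Some genes that the rule names are not reported here.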

Additional observations from a re-analysis of the deposited data

How the results depend on the processing

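The counts of edgeR calls stayed within 1.5 times of 1728 higher and 1780 lower under other scalings, other filters, removal of genes that share exons, a length and GC correction (2252 and 2529, of which 1694 and 1779 were also called without it) and DESeq2 (1487 and 1706). With 1 control library left out they ranged from 1079 to 2296 higher and from 941 to 2324 lower, and the lowest values came without the vector library. Of the 153 genes given with their edgeR result, 12 lost their call without the vector library, 7 with DESeq2 and 1 with a mean of at least 10 CPM. PMAIP1, RPS27L, KISS1R, CDKN2B and AC007192.4 were among those not called by DESeq2. Some others gained a call with a control left out or with the length and GC correction, BAX among them. The 269 genes at least 2-fold above the range became 160 with a mean of at least 10 CPM, 153 with a pseudocount of 5 CPM, 784 with a margin of 1.5-fold and 49 with a margin of 4-fold. The 186 below became 102 with that pseudocount, 742 and 10 with those margins and 105 without genes that share exons. Left-out controls gave 296 to 312 above and 206 to 212 below at 2-fold. At any distance they gave 5198 to 5531 above and 5109 to 5571 below the range. Leaving out a control can only narrow a range or keep it, so these rises do not show how firm the counts are. Summing genes that share exons, an alternative chosen after seeing the data, gave 255 and 146 at 2-fold. The wild-type library was the smallest, so low genes are least certain there. No paired analysis was possible because each group has 1 library and replicate numbers pair nothing.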
